A study of Mus musculus with 6 samples.

Results

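The genes described here build and remodel the actin cytoskeleton of natural killer (NK) cells: actins, the Arp2/3 complex and its activators, coronins, monomer-binding, capping and crosslinking proteins, tropomyosins, talin and its partners, ERM proteins, myosins, formins, IQGAP scaffolds and GTPases such as Rac2. They were chosen by name, as 58 mouse symbols, and 55 of them have a row among the 8520 genes of the table. Values for Tmsb4x, Capg and Actn1 were not analysed here. The table lists genes with at least 10.014 reads per 1000000 (CPM) in a second library, and the lowest value of any of the 55 genes in any library was 54.8 CPM (Arpc5l), so none of them entered through 1 group alone.

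RNA was sequenced from 2 groups of splenic NK cells of untreated C57BL/6Ncr mice aged 6 to 8 weeks, 20 mice in all, to ask how transcription differs with the Ly49 receptor a cell carries. Both groups were sorted as CD3-, NK1.1+ cells. Ly49G+ cells were also Ly49C/I-, and Ly49I+ cells were Ly49C/I+ and Ly49G-, with 3 libraries in each group. The labels call the libraries biological replicates without saying how the mice were divided among them, so a p-value reflects no more than how these libraries vary. Library totals ran from 33599679 to 40892154 reads.

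Actin monomers assemble into filaments that push the membrane forward, hold adhesion receptors in place and clear a path for secretion. When an NK cell meets a target, WASP and WAVE proteins, switched on by the GTPases Cdc42 and Rac, start the Arp2/3 complex, which grows branched filaments at the contact, the immune synapse. Talin and its partners tie integrins to these filaments, and myosin II pulls on them while lytic granules move to the contact. Loss of WASP, Coronin 1A or HEM1 is known to impair cytotoxic lymphocytes.

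The actin cytoskeleton genes were abundant and nearly level between Ly49G+ and Ly49I+ cells. In limma's test, with Benjamini-Hochberg adjustment over all 8520 genes, 0 of 55 passed an adjusted p of 0.05. Over all genes 3.59% passed (306 of 8520), a share at which few of 55 would. The median absolute log2 difference was 0.11 for the 55 and 0.13 for all genes. The largest difference among the 55 was 1.22-fold, and the smallest called for any gene was 1.23-fold. The 95% interval of every one of the 55 lay within 1.5-fold in either direction, as it did for 84.8% of all genes. With the replicate number as a block, 6 genes passed, all higher in Ly49I+ cells: the WAVE protein gene Wasf2, the filamin gene Flna, the zyxin gene Zyx, the GTPase gene Rac2, the HS1 gene Hcls1 and the formin gene Fmnl1. That is 10.9% of the 55, near the 11.7% of all genes that passed with the block.

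At an unadjusted p under 0.05 the limma test found 9 of the 55 (16.4%, against 19.8% of all genes), 8 higher in Ly49I+ (10.2% of all genes) and 1 higher in Ly49G+ (9.59%). The groups did not overlap for 14 genes (25.5%, against 25.8% of all genes), 10 higher in Ly49I+ (13.4% of all genes) and 4 higher in Ly49G+ (12.5%). The log2 difference, Ly49G+ minus Ly49I+, was negative for 40 genes and positive for 15, with a median of -0.09 and a range of -0.29 to 0.18. Over all genes 53.5% were negative and the median was -0.02. That median of the 55 was -0.06 without Ly49G+ replicate 1, -0.13 without Ly49I+ replicate 1 and -0.05 without Ly49I+ replicate 3. Some other settings of the limma fit made calls among the 55. Wasf2, Flna, Zyx and Rac2 passed without Ly49I+ replicate 1 (7.56% of all genes called). Flna alone passed with a robust prior (3.85% of all genes called) or quantile normalization (3.79%). None passed without the intensity trend (2.77%), with median centring (3.99%), among genes with a mean of at least 4 log2 CPM (3.12%) or with a pseudocount of 1 CPM (3.59%). None passed without Ly49G+ replicates 1 (1.82%), 2 (1.1%) or 3 (1.97%) or without Ly49I+ replicates 2 (2.43%) or 3 (3.44%). The median standard error was 0.08 for the 55 and 0.10 for all genes.

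**Figure D1:**
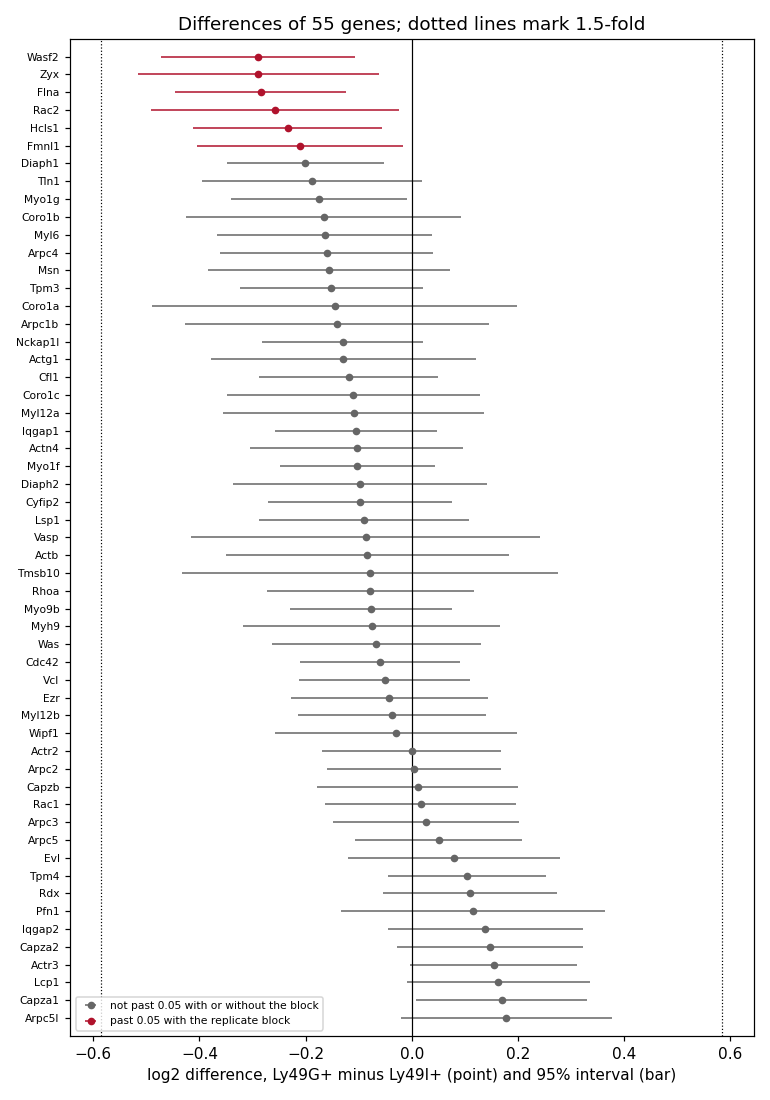
Each point is the log2 difference of 1 gene, Ly49G+ minus Ly49I+, with its 95% interval from limma as a bar (3 libraries per group), and dotted lines mark 1.5-fold. All 55 bars stay inside the dotted lines, and the 6 genes that passed with the replicate block lie at the Ly49I+ end, from -0.21 to -0.29.

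All 15 markers of NK cells fixed for a check of the label were measured, with summed levels of 17400 to 17700 CPM in Ly49G+ and 18100 to 18700 CPM in Ly49I+ libraries. Of these, 1 was higher in Ly49G+ (Eomes) and 3 in Ly49I+ (Tbx21, Gzmb and Prf1). Markers listed for other cell types also differed between the groups. Of 30 monocyte and macrophage markers 16 were measured, 12 of them higher in Ly49I+ and 1 in Ly49G+, and the summed level was 2110 to 2210 CPM in Ly49G+ and 1910 to 3090 CPM in Ly49I+. Most of that sum is Ccr2 and Itgax, which these NK libraries carry in both groups. Without that pair, left out after the values were seen, it was 46.0 to 90.7 CPM in Ly49G+ and 421, 1440 and 340 CPM in Ly49I+ replicates 1, 2 and 3. Of 16 T cell markers 11 were measured and 6 were higher in Ly49G+ (870 to 949 against 715 to 760 CPM summed). Most of that T cell sum is Cd247, Trdc and Trbc1, which these NK libraries also carry in both groups. Less abundant markers differed more than the sum. Cd3e was at 9.27, 18.5 and 11.5 CPM in Ly49G+ and 0.592, 1.06 and 1.22 CPM in Ly49I+. The log2 differences of Trac, Cd3g and Cd3d were 1.92, 1.70 and 1.34. Of the 11 markers 0 were called higher in Ly49I+. All 15 genes of a list for the CD11b+ stage of NK maturation were measured and 14 were higher in Ly49I+ (6780 to 6810 against 9140 to 9430 CPM), and of 13 genes that mark CD27+ or immature cells 10 were higher in Ly49G+. The part of these in the actin genes was not tested, and in sorted pools fewer cells of a type and less RNA per cell cannot be told apart.

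The 2 cytoplasmic actins stood far apart in level. Actb, which encodes β-actin (gene 11461, GRCm38.p6 chromosome 5, 142903115 to 142907976), measured 11230, 11614 and 13008 CPM in the Ly49G+ libraries, in replicate order, then 10820, 14198 and 13140 CPM in the Ly49I+ libraries. Actg1, which encodes γ-actin (gene 11465, chromosome 11, 120345687 to 120348495), was at 528, 582 and 592 CPM in Ly49G+ and at 516, 639 and 721 CPM in Ly49I+. Ly49I+ replicate 1 was the lowest library for both genes, and the groups overlapped. The log2 differences were -0.08 ± 0.12 for Actb (SE, adjusted p = 0.724) and -0.13 ± 0.11 for Actg1 (adjusted p = 0.535).

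Per kilobase of exons Actb stood at 6224 ± 487 CPM in Ly49G+ against 6625 ± 900 CPM in Ly49I+ (SD, 3 libraries each), the third highest of 8302 genes with a length. Averaged over the libraries, it was 21.0 times the level of Actg1 per kilobase. The 2 coding sequences are the same length, 1128 bases with the stop codon, and 88.7% identical. Their first 60 bases, from the GENCODE M21 transcripts (GRCm38, minus strand of both chromosomes), show where reads can tell them apart, with capitals at the 9 bases that differ:
Actb: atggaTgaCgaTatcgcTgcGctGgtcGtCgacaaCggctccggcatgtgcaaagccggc
Actg1: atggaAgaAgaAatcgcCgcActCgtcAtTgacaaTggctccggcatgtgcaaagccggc
Of the distinct 100-base windows in their transcripts, 0.644% for Actb and 29.9% for Actg1 also occur in transcripts of other genes, for Actg1 mostly the predicted genes Gm12715, Gm8399 and Gm16385. The authors' counting of such reads was not given, which leaves the level of Actg1 uncertain. The same holds for Capza1 (49.8% of windows shared), Tpm3 (15.8%), Myl12a (13.1%, with Myl12b), Actr3 (11.3%), Tmsb10 (11.1%), Coro1b (8.67%), Arpc4 (8.01%) and Tpm4 (7.37%).

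Actin genes are a known target of the factor SRF, which binds the CArG box, so the box was sought in 300-base RefSeq promoters (GRCm38.p6, 250 bases before to 50 after each gene's start, both strands read at once because the motif is its own reverse complement). No promoter was on hand for Actb, Arpc5l, Nckap1l, Coro1b, Lsp1, Diaph1, Rac1 or Rac2, which were therefore not searched. A promoter was on hand for 47 of the 55 genes, and 4 of these (8.51%) hold a CArG box. The share was 1.81% of all 27025 genes with a promoter and 1.53% of the 6842 that are in the table. By window it was 6.9% of 58 for the members and 1.63% of 32851 for all. The 4 stretches are shown with the box in capitals, because theirs are the searched genes of this group in which the motif can be read. Each line runs 5′ to 3′ on the gene's strand, upstream of an annotated start. For Myl6 the stretch lies inside the gene's span (chromosome 10, 128490859 to 128493886), upstream of an internal start.
Actg1: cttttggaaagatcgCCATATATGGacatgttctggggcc
Myl6: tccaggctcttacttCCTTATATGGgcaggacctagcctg
Vcl: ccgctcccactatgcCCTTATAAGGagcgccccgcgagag
Arpc4: CCTAATTTGGtgcccaacctgaggt
The stretches lie at chr11:120348561-120348600 (minus strand), chr10:128493035-128493074 (minus), chr14:20929156-20929195 (plus) and chr6:113377863-113377887 (plus). None of the 4 genes passed the test, with log2 differences of -0.13 (Actg1), -0.16 (Myl6), -0.05 (Vcl) and -0.16 (Arpc4). A match is a description of the sequence and shows no binding.

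The Arp2/3 complex, which nucleates branched filaments from the side of an existing one, was the most evenly expressed of the larger groups. Of its 8 measured subunit genes 0 passed with or without the block, 3 differences were negative and 5 positive, and the median log2 difference was 0.02 (Actr2 turned positive with median centring and Arpc2 negative with quantile normalization). Actr2 (ARP2) was at 465, 490 and 438 CPM in Ly49G+ and 492, 466 and 436 CPM in Ly49I+, a difference of 0.00 with a 95% interval of -0.17 to 0.17. Arpc2 was at 574, 598 and 603 CPM in Ly49G+ and 559, 637 and 576 CPM in Ly49I+. The groups overlapped for both genes.

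Among the 8, only Actr3 (ARP3) had groups that did not overlap. It was at 785, 854 and 836 CPM in Ly49G+ and 739, 773 and 712 CPM in Ly49I+ (log2 difference 0.15 ± 0.07, SE, adjusted p = 0.26). Arpc5l, the less abundant of 2 alternative forms of subunit 5, had the largest difference of the 8. It was at 69.3, 68.4 and 59.0 CPM in Ly49G+ and 59.0, 54.8 and 59.8 CPM in Ly49I+ (0.18 ± 0.09, adjusted p = 0.299), and Ly49G+ replicate 3 lay inside the Ly49I+ range. For Arpc1b, 1 of the 2 forms of the p40 subunit, Ly49I+ replicate 3 stood above the other 5 libraries at 371 CPM, against 248 to 273 CPM.

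RNA levels of the 8 subunit genes per kilobase of exons spanned a wide range. In Ly49G+ cells Arpc2 led at 329.7 ± 8.83 CPM per kilobase, followed by Actr3 at 311.9 ± 13.6 and Arpc3 at 177.2 ± 8.83 (SD, n = 3). The first 2 did not differ beyond their spread. Arpc4 was lowest at 30.57 ± 1.59, and Arpc5 (134.4 ± 2.46) exceeded its alternative Arpc5l (48.95 ± 4.28). The 8 genes had the same order in Ly49I+ cells, and the neighbours Arpc5 and Actr2 were within their spread of each other in that group (129.9 ± 7.75 against 127.9 ± 7.71).

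**Figure D2:**
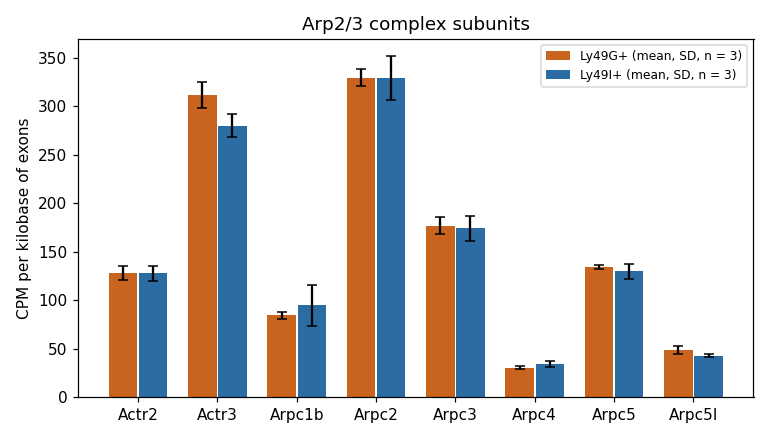
Bars give the mean level of each Arp2/3 subunit gene in CPM per kilobase of annotated exons, with SD over 3 libraries, for Ly49G+ and Ly49I+ cells. The subunits differ from each other far more than the groups do, from Arpc2 (329.7 in Ly49G+) to Arpc4 (30.57 in Ly49G+).

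Activators of the complex had negative differences in all 6 genes, with a median of -0.11, and 2 passed with the block. Wasf2, which encodes WAVE2, the Rac-driven activator at the leading edge (chromosome 4, 133130531 to 133199748), was at 220, 222 and 258 CPM in Ly49G+ and 269, 298 and 288 CPM in Ly49I+. All Ly49I+ libraries lay above all Ly49G+ libraries. The level was 1.22-fold higher in Ly49I+ (95% interval 1.08 to 1.39, log2 difference -0.29 ± 0.08, SE), with an adjusted p of 0.0863 in limma and 0.017 with the block. Hcls1, which encodes HS1, a cortactin-like protein that stabilises branched filaments in blood cells, was at 313, 311 and 354 CPM in Ly49G+ and 359, 383 and 408 CPM in Ly49I+. These groups did not overlap either, though Ly49G+ replicate 3 and Ly49I+ replicate 1 nearly met. Its adjusted p was 0.148, and 0.0304 with the block (log2 difference -0.23 ± 0.08).

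Nckap1l and Cyfip2, which encode other parts of the WAVE complex, differed less than Wasf2. Cyfip1, the paralogue of Cyfip2 described further below, differed more than Wasf2 (log2 difference -0.46 ± 0.09, SE). Nckap1l, which encodes HEM1, was at 565, 550 and 575 CPM in Ly49G+ and 613, 646 and 591 CPM in Ly49I+, without overlap (-0.13 ± 0.07, adjusted p = 0.313). Cyfip2 was at 874, 918 and 979 CPM against 930, 1054 and 982 CPM (-0.10 ± 0.08, adjusted p = 0.5), with overlap. WASP and its partner WIP did not pass. Was was at 178, 178 and 200 CPM in Ly49G+ and 175, 196 and 212 CPM in Ly49I+ (-0.07 ± 0.09), and Wipf1 differed by -0.03 ± 0.10.

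Coronins remodel branched networks. Coro1a, the coronin of blood cells, was at 272, 253 and 302 CPM in Ly49G+ and 243, 287 and 404 CPM in Ly49I+, so Ly49I+ libraries were both lowest and highest (-0.15 ± 0.16, adjusted p = 0.62). Coro1b and Coro1c differed by -0.17 ± 0.12 and -0.11 ± 0.11. None of the 3 passed with or without the block.

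Proteins that bind actin monomers or cut filaments were among the most abundant. The profilin gene Pfn1, whose product feeds monomers to growing ends, ranked ninth of 8302 genes per kilobase. It stood at 1782, 2095 and 2095 CPM in Ly49G+ and 1595, 2125 and 1819 CPM in Ly49I+ (0.11 ± 0.11). Cofilin (Cfl1), which severs old filaments, was at 918, 958 and 964 CPM against 948, 1090 and 1051 CPM (-0.12 ± 0.08). The groups overlapped for both. Thymosin β10 (Tmsb10), which sequesters monomers, had the widest interval of the 55 genes, -0.43 to 0.28. It was at 522, 536 and 720 CPM in Ly49G+ and 480, 717 and 689 CPM in Ly49I+, with wide overlap.

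Capping protein closes the growing end of a filament, and its 3 measured genes had positive differences, though Capzb turned to -0.005 with quantile normalization. Capza1 was at 235, 250 and 238 CPM in Ly49G+ and 213, 228 and 202 CPM in Ly49I+, without overlap. Its log2 difference of 0.17 ± 0.07 had an unadjusted p of 0.0413, the only one under 0.05 toward Ly49G+ among the 55, and an adjusted p of 0.236. Capza2, for the alternative α subunit, was at 77.0, 80.4 and 84.2 CPM against 74.2, 75.6 and 68.4 CPM, also without overlap (0.15 ± 0.08). Capzb, for the β subunit that pairs with either, differed by 0.01 ± 0.09.

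Among crosslinkers the 2 most abundant genes leaned opposite ways. Flna, which encodes filamin A, a large protein that joins filaments at angles and binds integrin tails (X chromosome, 74223461 to 74249854), was at 1980, 1936 and 2020 CPM in Ly49G+ and 2321, 2486 and 2424 CPM in Ly49I+. The gap between the groups was wider than the range within either. The level was 1.22-fold higher in Ly49I+ (95% interval 1.09 to 1.36, log2 difference -0.28 ± 0.07, SE), with an adjusted p of 0.0604, the lowest of the 55, and 0.0176 with the block. Lcp1, which encodes L-plastin, a bundling protein of blood cells, was at 1884, 2010 and 2058 CPM in Ly49G+ and 1707, 1887 and 1723 CPM in Ly49I+. Ly49G+ replicate 1 and Ly49I+ replicate 2 met at nearly the same level (0.16 ± 0.08, adjusted p = 0.272). Actn4 and Lsp1 differed by -0.10 ± 0.09 and -0.09 ± 0.09.

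Tropomyosins, which wrap filaments and set which other proteins can bind, also leaned apart. Tpm3 was at 652, 672 and 694 CPM in Ly49G+ and 683, 771 and 793 CPM in Ly49I+ (-0.15 ± 0.08). Tpm4 was at 554, 572 and 531 CPM against 524, 505 and 512 CPM, with no overlap (0.10 ± 0.07). Neither passed, with adjusted p of 0.303 and 0.399.

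Of the genes that link integrins to actin, Zyx passed with the block. It encodes zyxin, which gathers at stretched filaments and adhesions (chromosome 6, 42349511 to 42360213). Its levels were 672, 695 and 744 CPM in Ly49G+ and 732, 891 and 972 CPM in Ly49I+. Ly49I+ replicate 1 lay below the highest Ly49G+ library, and the groups overlapped there. The log2 difference was -0.29 ± 0.10 (SE, 1.22-fold, 95% interval 1.04 to 1.43), with an adjusted p of 0.158 and 0.0179 with the block. Talin (Tln1), the protein that activates integrins from inside, was at 1478, 1339 and 1424 CPM against 1502, 1510 and 1840 CPM, without overlap (-0.19 ± 0.09, adjusted p = 0.289). Vinculin (Vcl) was at 112, 113 and 113 CPM against 115, 124 and 111 CPM (-0.05 ± 0.07).

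ERM proteins fasten the membrane to the cortex, and moesin (Msn) led them in level. Per kilobase of exons, averaged over the libraries, Msn stood 2.37 times above ezrin (Ezr) and 8.17 times above radixin (Rdx). In CPM, Msn was at 1186, 1354 and 1412 in Ly49G+ and 1342, 1682 and 1391 in Ly49I+ (-0.16 ± 0.10). Ezr and Rdx differed by -0.04 ± 0.08 and 0.11 ± 0.07, and all 3 overlapped between the groups.

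All 7 myosin genes had negative differences, with a median of -0.10, and 0 passed with or without the block. Myh9, the heavy chain of non-muscle myosin IIA, was at 2322, 2207 and 2319 CPM in Ly49G+ and 2234, 2156 and 2888 CPM in Ly49I+ (-0.08 ± 0.11). Ly49I+ replicate 3 alone stood high, and the other 2 Ly49I+ libraries were within or below the Ly49G+ range. Its essential light chain gene Myl6 was likewise highest there, at 375 CPM against 280 to 305 CPM in the other 5 libraries. The class I myosin Myo1g, which works at the plasma membrane of lymphocytes, had the lowest p of the group. Its levels of 281, 278 and 301 CPM in Ly49G+ and 302, 343 and 327 CPM in Ly49I+ met without overlapping (-0.17 ± 0.07, adjusted p = 0.233). Myo1f and Myo9b differed by -0.10 ± 0.07 and -0.08 ± 0.07.

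Formins grow unbranched filaments. Fmnl1, a formin of blood cells (chromosome 11, 103171004 to 103198902), was at 460, 460 and 523 CPM in Ly49G+ and 505, 559 and 606 CPM in Ly49I+. Ly49G+ replicate 3 and Ly49I+ replicate 1 crossed (-0.21 ± 0.09, SE, adjusted p = 0.223, and 0.0479 with the block). Diaph1, which encodes mDia1, an effector of RhoA, was at 309, 311 and 323 CPM in Ly49G+ and 353, 375 and 357 CPM in Ly49I+. Its groups did not overlap, and it missed the threshold in both fits (-0.20 ± 0.07, adjusted p = 0.133, and 0.0576 with the block). Diaph2 was the least abundant of the 55 genes per kilobase and differed by -0.10 ± 0.11. The Ena/VASP genes Evl and Vasp, whose products lengthen filaments, differed by 0.08 ± 0.09 and -0.09 ± 0.15.

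Rac2 passed with the block. It encodes the Rac of blood cells (chromosome 15, 78559169 to 78572783) and was at 878, 958 and 1066 CPM in Ly49G+ and 997, 1209 and 1271 CPM in Ly49I+. Ly49I+ replicate 1 lay inside the Ly49G+ range. The log2 difference was -0.26 ± 0.11 (SE, 1.20-fold, 95% interval 1.02 to 1.41), with an adjusted p of 0.217 and 0.0222 with the block. Rac1 (chromosome 5, 143505481 to 143528031), the form found in most cells, was at 383, 387 and 399 CPM against 373, 430 and 357 CPM (0.02 ± 0.08). Cdc42 and Rhoa differed by -0.06 ± 0.07 and -0.08 ± 0.09. The scaffold genes Iqgap1 and Iqgap2 differed by -0.10 ± 0.07, without overlap, and 0.14 ± 0.08.

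Rac1 and Rac2 have coding sequences of equal length, 579 bases, that are 77.0% identical. Their last 60 bases, which hold the tail that steers each GTPase to its membrane, are the stretch shown here because the ratio of this pair is taken up next. They come from the GENCODE M21 transcripts (GRCm38, minus strand of both chromosomes), and capitals mark the 28 bases that differ:
Rac1: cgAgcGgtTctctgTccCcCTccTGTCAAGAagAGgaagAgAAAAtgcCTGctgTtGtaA
Rac2: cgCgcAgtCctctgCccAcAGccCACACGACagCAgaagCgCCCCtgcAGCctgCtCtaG

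A ratio of related genes within a library needs no scaling between libraries. Of 17 pairs chosen, 15 could be formed, and the ratios did not overlap between the groups for 3, while single genes did not overlap in 25.8% of cases. An exact permutation test over the 20 splits of 3 against 3 libraries cannot go below a two-sided p of 0.1. Each of the 3 reached that value, with an adjusted p of 0.429 over the 15 pairs. The Rac1 to Rac2 ratio in CPM was 0.437, 0.404 and 0.374 in Ly49G+ and 0.374, 0.356 and 0.280 in Ly49I+, the nearest libraries almost equal. The Iqgap1 to Iqgap2 ratio was 3.42, 3.41 and 3.37 in Ly49G+ and 3.70, 4.12 and 4.26 in Ly49I+, and the Actr2 to Actr3 ratio was 0.593, 0.574 and 0.524 against 0.666, 0.603 and 0.612. The Actb to Actg1 ratio overlapped, and all 3 Ly49G+ values lay within the Ly49I+ range of 18.2 to 22.2. Leaving out a library can only keep or raise this count, because fewer values are left to overlap. The count of 3 became 8, 7 and 6 pairs without Ly49G+ replicate 3, Ly49I+ replicate 1 and Ly49I+ replicate 3.

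**Figure D3:**
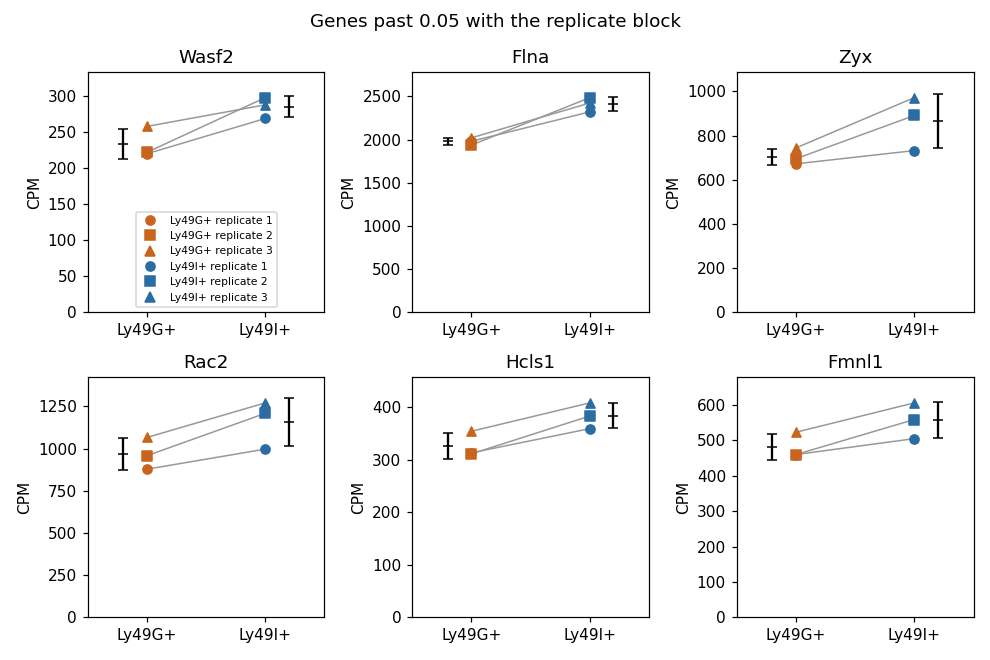
Points give CPM of the 6 genes that passed with the replicate block, grey lines join libraries of the same replicate number, and black bars give the mean and SD of each group (n = 3). In every panel all 3 lines rise from Ly49G+ to Ly49I+, while Ly49G+ replicate 3 lies above the lowest Ly49I+ library for Zyx, Rac2 and Fmnl1.

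These 6 calls rest on pairing the libraries by replicate number, and the labels do not say that a number is shared between the groups. All 6 genes were higher in Ly49I+ in each of the 3 same-numbered pairs. Without Ly49I+ replicate 1, Wasf2, Flna, Zyx and Rac2 passed in limma with no block, where 7.56% of all genes did. With all 6 libraries and no block, 0 passed. Ly49I+ replicate 2 was the library with the highest sum of monocyte markers. Without that library and with no block, 0 passed as well (2.43% of all genes did). This fit could not show a loss of calls, because 0 passed without the block from all 6 libraries too. The block fit was not run without that library. The log2 differences without Ly49I+ replicate 2 were -0.26 for Wasf2, -0.26 for Flna, -0.26 for Zyx, -0.22 for Rac2, -0.23 for Hcls1 and -0.20 for Fmnl1.

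Single libraries moved many of the 55 genes together. Ly49I+ replicates 3 and 2 were the highest library for 22 and 18 genes, and Ly49G+ replicate 1 and Ly49I+ replicate 1 the lowest for 15 and 13. The median deviation of the 55 genes from their means over the 6 libraries was -0.08, -0.08 and 0.01 in Ly49G+ replicates 1, 2 and 3 and -0.05, 0.07 and 0.09 in the Ly49I+ replicates. For all genes it stayed between -0.02 and 0.01. The 55 genes took 4.15%, 4.28% and 4.54% of reads in Ly49G+ and 4.17%, 4.82% and 4.75% in Ly49I+ replicates 1, 2 and 3.

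**Figure D4:**
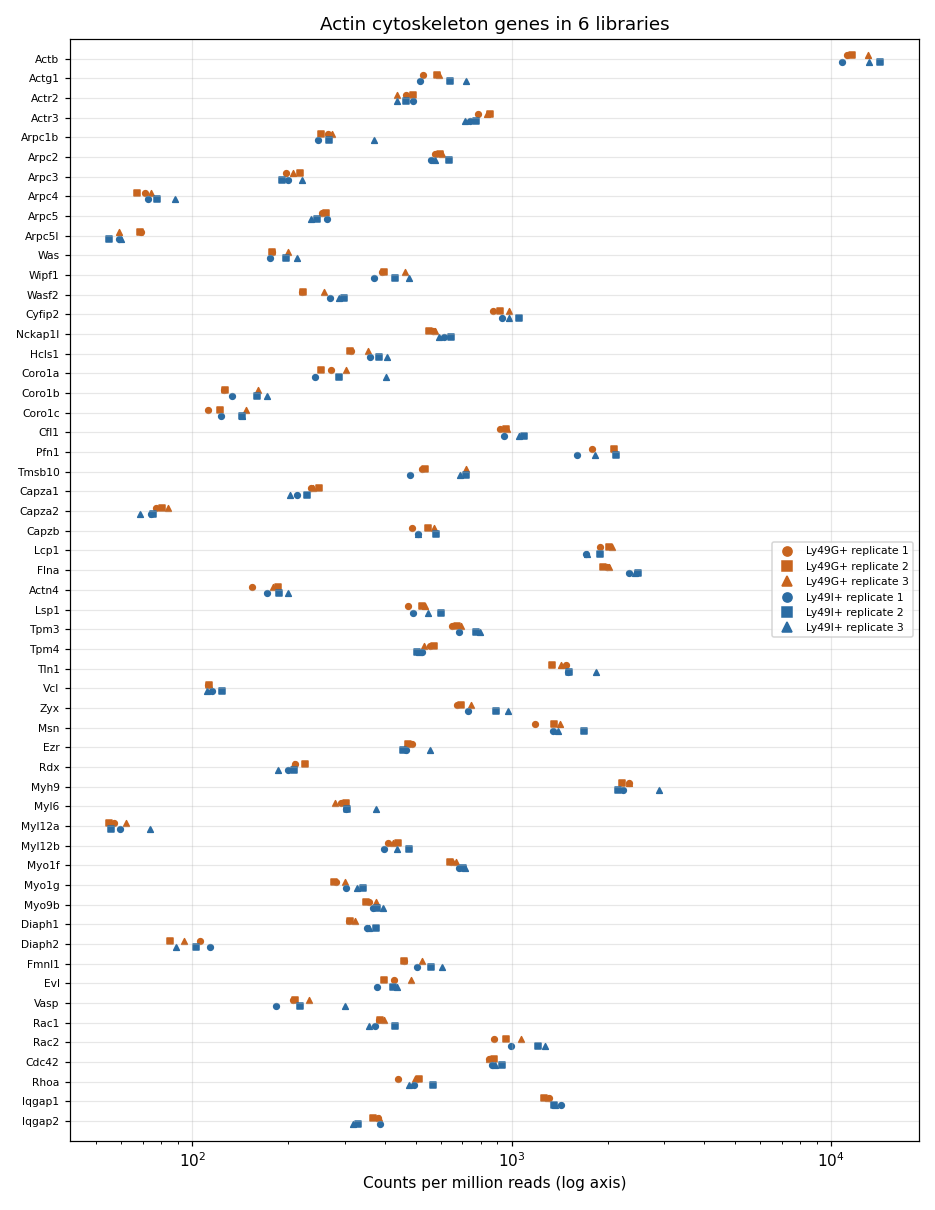
Each row is 1 of the 55 genes, with its level in CPM on a log axis in 3 Ly49G+ libraries (orange) and 3 Ly49I+ libraries (blue). Symbols of both colours fall together in most rows, and levels span from 54.8 CPM (Arpc5l) to 14198 CPM (Actb).

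Around these genes lie the regulators, adaptors, motors and adhesion receptors of the same machinery, drawn up as 8 lists with 196 measured genes outside the 55, of which 6 lists are described here. In limma 12 were higher in Ly49I+ and 2 higher in Ly49G+, while 182 did not pass. Over all genes 1.77% were higher in Ly49I+ and 1.82% higher in Ly49G+. With the block 29 were higher in Ly49I+ and 3 in Ly49G+, where the shares over all genes are 5.96% and 5.69%. The median log2 difference of the 196 was -0.09, the same as for the 55.

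Adhesion receptors had the most calls, 4 of 20, all higher in Ly49I+. Itgam and Itgb2, the α and β chains of the integrin Mac-1, stood at 1142 ± 16.1 against 1535 ± 66.6 CPM (SD, n = 3; log2 difference -0.43 ± 0.07, SE, adjusted p = 0.0081) and 1447 ± 43.6 against 1863 ± 103 CPM (-0.36 ± 0.07, adjusted p = 0.0241). Itgb7 and the sialomucin gene Spn (CD43) differed by -0.48 ± 0.09 and -0.32 ± 0.07. Without the intensity trend Itgb2 and Spn did not pass (adjusted p = 0.0584 and 0.0719), and Spn did not with median centring (adjusted p = 0.0553). Itgam, Itgb2, Itgb7 and Spn passed in 3, 2, 4 and 2 of the 6 fits that left out 1 library. Itgam and Spn are also in the CD11b+ stage list, and Itgam and Itgb2 are known from monocytes too.

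Integrin adaptors had 1 call each way among 24. Rap1b, a GTPase that activates integrins through talin, was higher in Ly49I+ (-0.42 ± 0.08), and Rapgef6, an exchange factor for Rap, was higher in Ly49G+ (0.31 ± 0.07, adjusted p = 0.0348). Other actin regulators had 3 of 47 higher in Ly49I+: Cyfip1, the paralogue of Cyfip2 in the WAVE complex (-0.46 ± 0.09), the formin Inf2 (-0.51 ± 0.11) and the cargo motor Myo5a (-0.80 ± 0.14). Septins, spectrins and filaments had Dst higher in Ly49I+ (-0.98 ± 0.20) and Septin7 higher in Ly49G+ (0.40 ± 0.09, adjusted p = 0.0412) among 16. Neither call toward Ly49G+ held without the intensity trend (adjusted p = 0.0889 for Rapgef6 and 0.0983 for Septin7). Rapgef6, Septin7, Inf2 and Dst each passed in 1 of the 6 fits that left out 1 library, Rap1b and Cyfip1 in 2 and Myo5a in 4. Kinases and phosphatases (17 genes) and microtubule genes (29) had 0 calls in limma, with 2 and 5 at an unadjusted p under 0.05 and 1 and 2 with the block.

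The count of 14 (7.14% of the 196, against 3.59% of all genes) fell to 5 without Ly49I+ replicate 2 (2.43% of all genes called). It fell to 4, 1 and 5 without Ly49G+ replicates 1, 2 and 3 (1.82%, 1.1% and 1.97% of all genes called). It was 24 without Ly49I+ replicate 1 (7.56% of all genes called). Without Ly49I+ replicate 2 Cyfip1 and Myo5a differed by -0.38 (adjusted p = 0.0793) and -0.69 (adjusted p = 0.056), less than with all 6 libraries. Other genes lost their call there with a larger difference. Itgb2 went from -0.364 to -0.385 (adjusted p = 0.0572) and Inf2 from -0.514 to -0.569 (adjusted p = 0.0583).

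**Figure D5:**
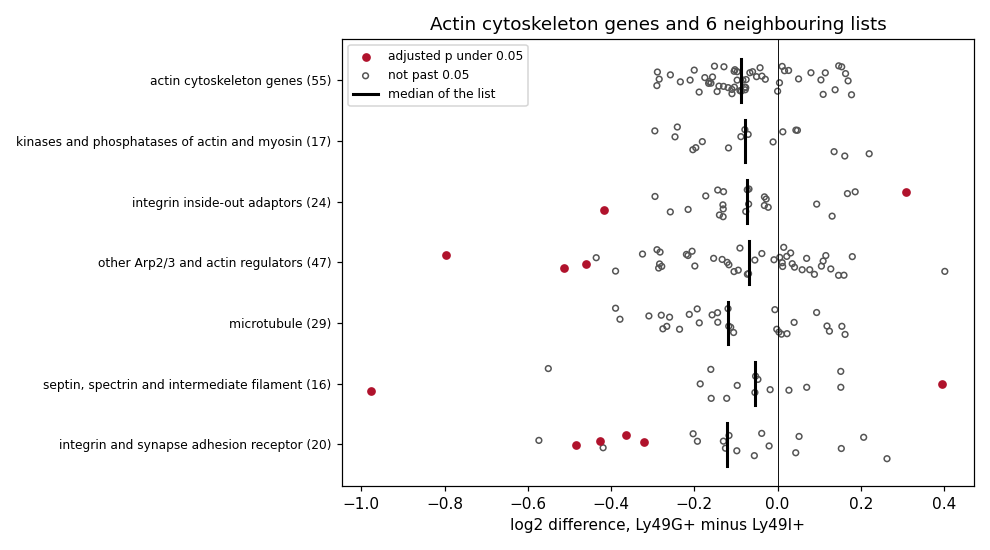
Each point is the log2 difference of 1 gene, Ly49G+ minus Ly49I+, for the 55 actin cytoskeleton genes and 6 neighbouring lists, with list medians as black bars and limma calls filled in red. The 55 genes have no filled point and lie between -0.29 and 0.18, and the filled points on the Ly49G+ side are Rapgef6 and Septin7.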

How the data were processed

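Spleen NK cells were sorted into 2 groups with 3 stranded libraries each, read as pairs of 100 bases (0.4 µg RNA input), per the labels' protocols. CASAVA 1.8.2, STAR 2.3.0, limma and build mm10 were used, per the submitters' processing notes. No source used here gives the counter, annotation or low-count filter. The deposited table holds log2 CPM by the voom formula (offsets of 0.5 on the count and 1 on the total), and solving it gave whole reads for 100% of values within 0.001 read. Totals of 33599679 to 40892154 reads leave little counting error beside the spread of libraries.

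Gene numbers were matched to RefSeq (GRCm38.p6) names for 8429 of 8520 genes. The test was limma 3.58.1 under R 4.3.3 (Ly49G+ against Ly49I+, empirical Bayes with an intensity trend, two-sided, Benjamini-Hochberg over 8520 genes, threshold 0.05), checked on simulated data. CPM is 2 to the power of the deposited value. Levels per kilobase use the union of GENCODE M21 basic exons. Same-numbered libraries deviated together (correlation of deviations from group means 0.371, 0.114 and 0.156 for numbers 1, 2 and 3), so the block fit is given where it changes a call. Ly49G+ replicate 3 correlated more with Ly49I+ replicate 2 (0.359), and Ly49G+ replicate 2 about as much with Ly49I+ replicate 1 (0.115). The labels do not say what a replicate number shares between the groups, so the block is an unverified pairing. Named were, outside the results left out below, every gene past the threshold, the most abundant and most different gene of each role, and the fixed pairs. Members, lists and rules were chosen with earlier results of these data known. Python 3.11.15, numpy 2.4.6, pandas 2.3.3 and matplotlib 3.10.9 were used. Some results, among them those of 2 neighbouring lists, are not reported here.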

Additional observations from a re-analysis of the deposited data

How the results depend on the processing

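With the replicate block 993 of all genes, 6 of the 55 actin genes and 32 of the 196 neighbouring genes were called, against 306, 0 and 14. Flna was the 1 actin gene called with the robust prior (adjusted p = 0.0455) or quantile normalization (0.0274), and 0 were called without the intensity trend, with median centring, with a minimum mean of 4 log2 CPM or with a pseudocount of 1 CPM. Leaving out 1 library gave 94 to 644 calls over all genes, 0 to 4 actin genes, 1 to 24 neighbouring genes and 3 to 8 pairs with non-overlapping ratios. Fewer libraries lower the power of the test. For the pairs, leaving out a library can only keep or raise the count. The cause of the higher counts of called genes was not tested. The log2 difference changed sign for Actr2 with median centring (0.0186) and with quantile normalization for Arpc2 (-0.0076), Capzb (-0.005) and Rac1 (-0.005), and Actb then stood at 0. None of these genes was called in any of the 14 fits. Leaving out 1 library changed the sign of 15 genes, with ranges of -0.196 to 0.00036 for Actb, -0.0453 to 0.0418 for Actr2, -0.256 to 0.0352 for Arpc1b, -0.0341 to 0.0602 for Arpc2, -0.0193 to 0.0859 for Arpc3, -0.127 to 0.0554 for Wipf1, -0.308 to 0.0594 for Coro1a, -0.262 to 0.0273 for Tmsb10. The other 7 ranged from -0.0379 to 0.0761 for Capzb, -0.0932 to 0.0448 for Ezr, -0.155 to 0.0563 for Myh9, -0.196 to 0.0108 for Myl12a, -0.104 to 0.0248 for Myl12b, -0.248 to 0.109 for Vasp and -0.0393 to 0.0955 for Rac1.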
